A study of Caenorhabditis elegans with 6 samples.

Results

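LTR retrotransposons are mobile elements that are transcribed into RNA, copied into DNA by reverse transcriptase and inserted elsewhere in the genome. An intact element has an internal part, which encodes the capsid and polymerase proteins, between a pair of long terminal repeats (LTRs), which carry the signals that start and end its transcript. In Caenorhabditis elegans these elements are called Cer, and many copies are fragments or single LTRs. The worm represses repeats with histone H3 lysine 9 methylation by MET-2 and SET-25 and with small RNA pathways, among them the piRNA Argonaute PRG-1 and the mutator proteins organised by MUT-16.

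The members were the repeat rows of the deposited count table whose names end in a copy number and start with CER and a digit, or with LTR. The rule used names alone and no measured value. It gave 619 copies of 42 families, out of 53925 repeat copies of 179 families. Of these, 320 copies in 17 families are marked as internal in their names (-int), and 275 copies in 24 families are LTRs. A further 24 copies form the family CER1, whose name marks no part and whose LTRs have a family of their own, LTRCER1, so its values are given apart unless stated.

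The RNA came from whole L1 larvae, the stage that hatches from the egg, of a div-1 mutant and a wild type. The mutant strain, BCN6101, is EU548 with the reporter pdaf-21::mCherry and carries the or148 allele of div-1, which encodes a subunit of DNA polymerase alpha-primase. The wild-type libraries are labelled N2, and by their strain label, BCN1050, carry the same reporter. Populations of both strains grew at 20 °C on OP50 bacteria and were bleached, larvae hatched overnight in M9 buffer, and each library pools many animals. There were 3 libraries in each group, which the labels call biological replicates without saying whether the cultures were separate, so p-values measure the spread between these libraries.

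Total counts lay between 25051167 and 27632878 per library. The LTR element copies took 5504, 3190 and 4630 counts in the mutant libraries and 2926, 3101 and 3161 in the wild-type libraries. That is 0.0209%, 0.0127% and 0.0176% of all counts in div-1 larvae, against 0.0112%, 0.0112% and 0.0125% in wild-type larvae. Levels below are CPM, counts per 1e6 counts after TMM scaling on gene rows. They are not per length, so a level is compared between libraries and not between families. In RNA from whole animals, fewer cells of a type and less RNA per cell cannot be told apart.

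Most of the copies had few or no counts. Of the 619 copies, 300 (48.5%) had no count in any library, 170 had 1 to 9 counts over the 6 libraries and 149 had at least 10. A count of 0 in all libraries allows up to 3 counts, or 0.0191 per 1e6 counts, by counting error alone. Counts were found at 166 of the internal copies (51.9%), 139 of the LTR copies (50.5%) and 14 of the CER1 copies (58.3%). The 3 families CER4-LTR_CE, CER11-LTR_CE and CER17-LTR_CE had none.

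The counts were concentrated in a few copies. A group of 12 copies held 50% of the 22512 counts, and 72 copies held 90%. The 2 leading copies, CER1_23 and CER7-I_CE-int_10, together held 26.8%. Among the 25 families with a mean of at least 1 CPM, the leading copy held more than 50% of the family's counts in 13, with a range of 16.6% for CER12-I_CE-int to 98.1% for CER4-I_CE-int. A family sum is thus often the signal of 1 site. Copies of a family can be near-identical in sequence, so the assignment of short reads among them is uncertain.

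**Figure D1:**
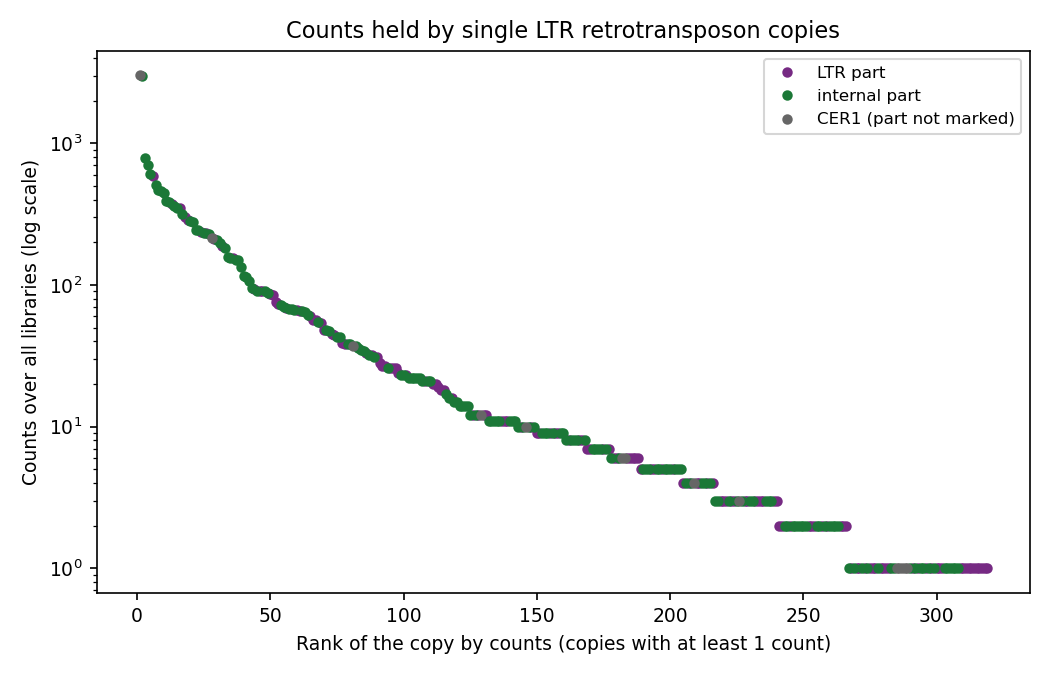
Counts over the 6 libraries (log axis) of the 319 LTR element copies with at least 1 count, ranked from highest to lowest and coloured by the part their name marks. The first 12 copies hold 50% of the counts and 300 further copies at 0 are not drawn.

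The table lists its rows in genome order, which gave all but 2 of the copies a chromosome and neighbouring genes. Chromosome X held the most copies, 153 of 619 (24.7%), and 3.6% of the counts. Chromosome V held 145 copies (23.4%) and 35% of the counts, and chromosome III 68 copies (11%) and 18.9%. Copies within 6 rows of another row of the same element were joined into 381 loci. In 35 of them an LTR row stood on each side of an internal row or of CER1, the arrangement of an intact element, and these held 55.8% of the counts. LTR rows standing alone formed 169 loci with 14.8% of the counts, and internal rows alone formed 162 loci with 21.4%. A copy can be a piece of an element. A CER9 locus on chromosome X joined 37 rows, with 125 counts, so shares of copies are not shares of elements.

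The summed level was higher on average in the mutant than in the wild type, and 1 of the mutant libraries lay close to the wild type. All copies together stood at 197, 131 and 174 CPM in the mutant libraries and at 120, 118 and 127 CPM in the wild-type libraries. The means were 168 ± 33.2 CPM in div-1 larvae and 122 ± 4.83 CPM in wild-type larvae (SD, n = 3 each), a ratio of 1.37. The groups did not overlap, but mutant library 2 lay just above wild-type library 3. Sums over members were not tested. The other repeat copies, without rRNA repeats, stood at 2859 ± 218 CPM in div-1 larvae and 2502 ± 29.6 CPM in wild-type larvae (SD, n = 3 each), a ratio of 1.14.

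The order of the libraries within the mutant recurred in most families. Mutant library 1 was the highest of the mutant libraries in 14 of the 25 families above 1 CPM, and mutant library 2 the lowest in 18 of them. The log2 ratio of the summed level was 0.46 with all libraries, 0.33 without mutant library 1 and 0.61 without mutant library 2.

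**Figure D2:**
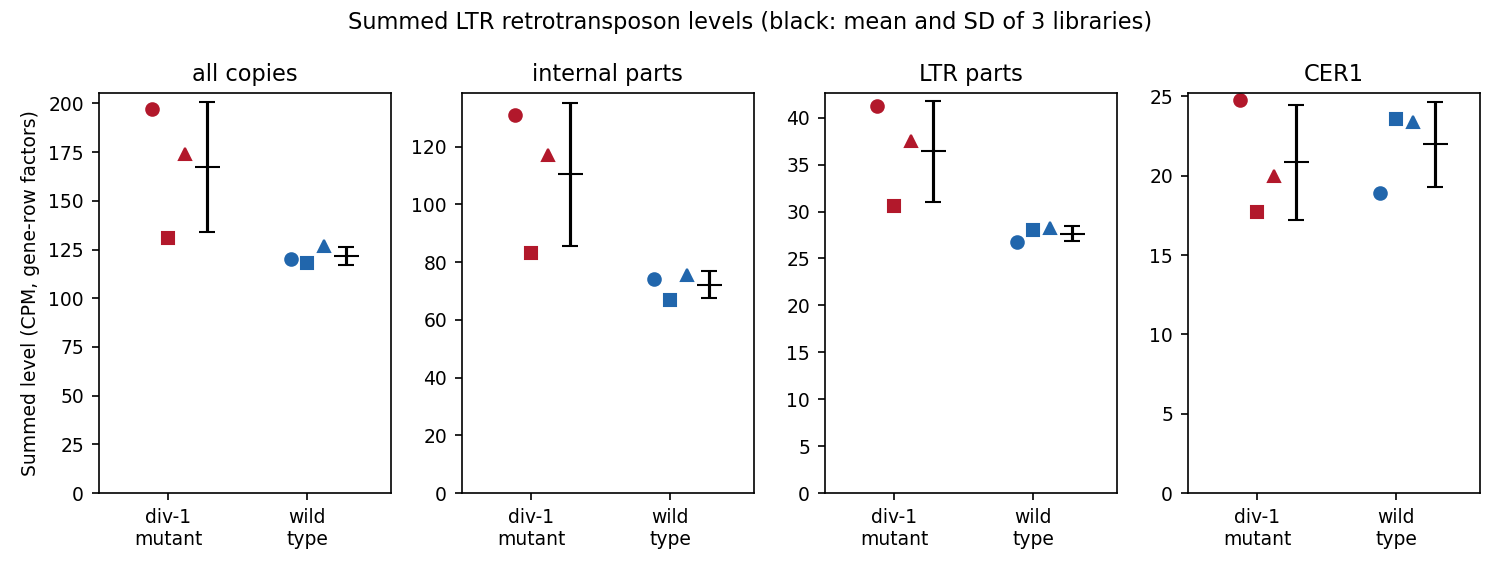
Summed level (CPM) of all 619 copies, the internal parts, the LTR parts and CER1, with 1 point per library, div-1 mutant left of wild type in each panel, and the mean and SD of 3 libraries in black. Every mutant library stands above every wild-type library for the internal and the LTR parts, while the groups overlap for CER1.

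No family passed the threshold of 0.05 on the adjusted p when the sums of all repeat families were tested together with all genes (edgeR, quasi-likelihood, adjusted by Benjamini and Hochberg). Of 42 families, 29 passed the filter on low counts, and 0 of these were called, where 0.906% of all 16444 genes and families were. At an unadjusted p under 0.05, 7 of the 29 (24.1%) were higher and 0 lower, against 8.37% higher and 2.45% lower among all genes and families, and 15.9% higher among the other repeat families. Without mutant library 3, 3 of 29 (10.3%) were higher, against 5.87% of all genes and families. DESeq2 called 1 of the families and limma voom 0. A p that misses the threshold does not show that the levels were equal.

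The tested LTR families lay mostly on the higher side in the mutant, as did the other repeats. Their log2 fold changes had a median of 0.39, with 24 of 29 (82.8%) above 0. The median was 0.19 for the other repeat families, of which 84.1% were above 0, and -0.03 for genes; of all genes and families tested, 46.4% were above 0. In 8 families (27.6%) all mutant libraries lay above all wild-type libraries, against 10.3% of all genes and families and 23.8% of the other repeat families. In 0 families did they all lie below, against 7.66% of all genes and families. These shares include only families that passed the filter, and no difference between the groups of families was tested.

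**Figure D3:**
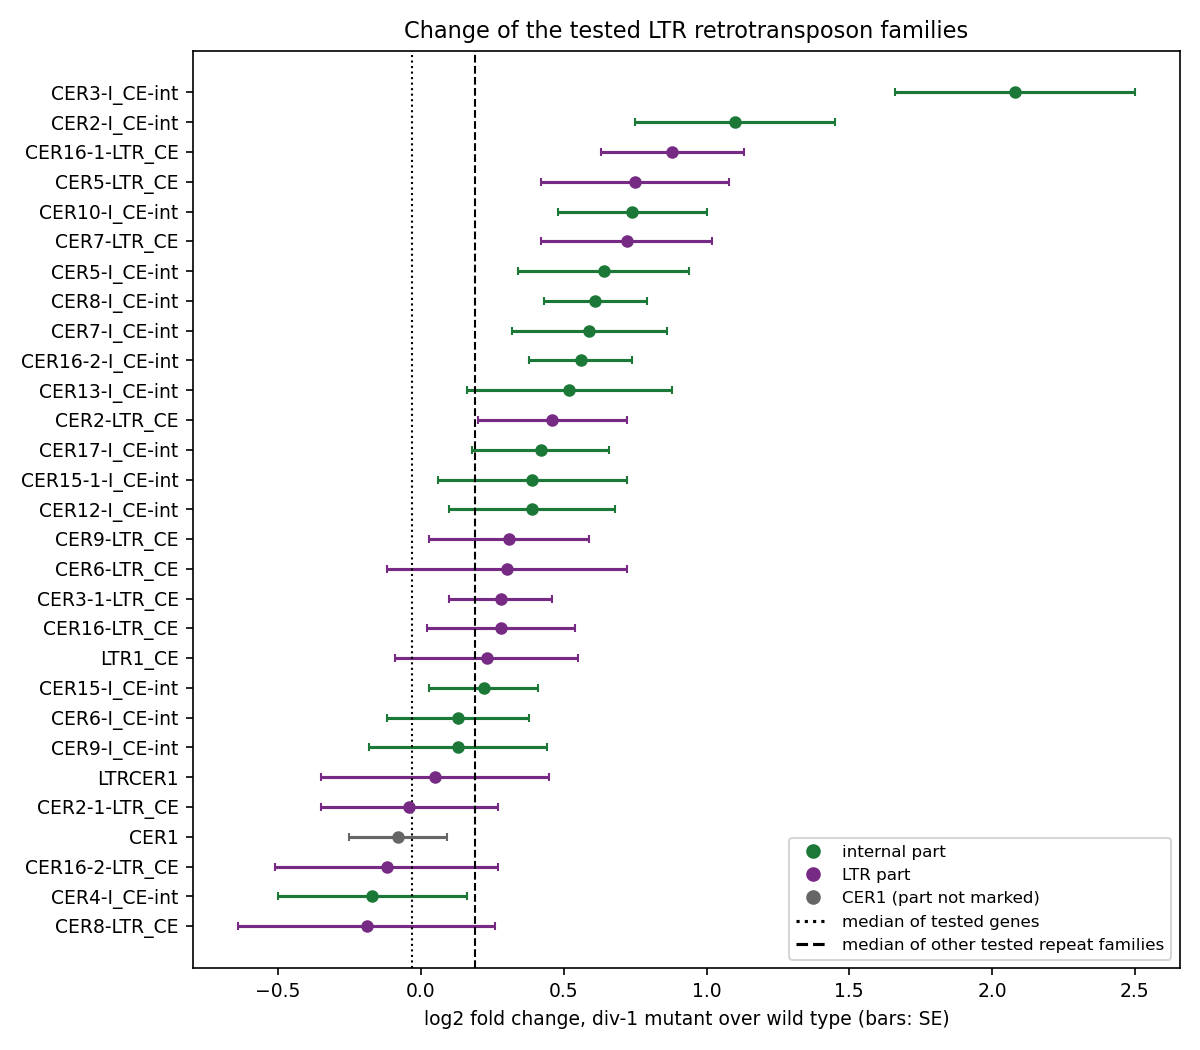
Log2 fold change (div-1 mutant over wild type, with its standard error) of the 29 tested LTR element families, coloured by part. The dotted line marks the median of tested genes (-0.03) and the dashed line that of the other tested repeat families (0.19); CER3-I_CE-int lies farthest to the right at 2.08.

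The internal part of CER3 had the largest log2 fold change of the 29 families. CER3-I_CE-int stood at 17.9, 5.89 and 12.3 CPM in the mutant libraries and at 3.81, 2.63 and 2.09 CPM in the wild-type libraries. The groups did not overlap, and the mutant libraries differed from each other by about as much as the groups did. The means were 12 ± 6.02 CPM in div-1 larvae and 2.85 ± 0.877 CPM in wild-type larvae (SD, n = 3 each). The log2 fold change was 2.08 with an SE of 0.42, and the edgeR adjusted p was 0.0761. It passed the threshold without mutant library 2, at an adjusted p of 0.0341, and in DESeq2, at 0.000108.

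The tested LTR family of CER3 showed a smaller difference. The family CER3-1-LTR_CE stood at 7.26, 6.05 and 5.87 CPM in div-1 larvae and at 5.16, 5.53 and 5.16 CPM in wild-type larvae. All mutant libraries lay above the wild type, by a narrow margin, with a log2 fold change of 0.28 (SE 0.18, edgeR adjusted p = 0.637). Its leading copy, CER3-1-LTR_CE_2 on chromosome I, had 79, 63 and 60 counts in div-1 larvae and 46, 52 and 47 counts in wild-type larvae, with no overlap (log2 fold change 0.41, edgeR adjusted p = 0.561). The second LTR family, CER3-LTR_CE, was too low to be tested. It had 34, 7 and 26 counts in the mutant libraries and 9, 6 and 6 counts in the wild-type libraries, so mutant library 2 lay within the range of the wild type. Its means were 0.828 ± 0.482 CPM in div-1 larvae and 0.28 ± 0.0773 CPM in wild-type larvae (SD, n = 3 each).

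Most of the CER3 internal counts came from a pair of loci. The first lies on chromosome V between Y37H2A.16 and fbxa-107, and has 5 internal rows between the LTR rows CER3-1-LTR_CE_8 and CER3-1-LTR_CE_9. This locus had 258, 64 and 128 counts in the mutant libraries and 19, 31 and 22 counts in the wild-type libraries. Most of them fell on a single row, CER3-I_CE-int_3, with 194, 38 and 83 counts in div-1 larvae and 12, 15 and 9 counts in wild-type larvae. Its lowest mutant library lay above its highest wild-type library, and mutant library 1 was the highest by far. Its log2 fold change was 3.02 (SE 0.57), with an edgeR adjusted p of 0.06. It was 2.29 without mutant library 1. The row passed the threshold without mutant library 2 (adjusted p = 0.027), with upper-quartile factors (0.0471), with a filter of at least 10 counts in total (0.049) and in DESeq2 (1.41e-05).

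Neighbouring rows of the chromosome V locus had far fewer counts. CER3-I_CE-int_5 had 24, 7 and 23 counts in div-1 larvae and 0, 4 and 6 counts in wild-type larvae. CER3-I_CE-int_4 had 23, 8 and 6 counts in div-1 larvae and 4, 2 and 4 counts in wild-type larvae. Neither row overlapped between the groups in raw counts. At CER3-I_CE-int_1 the groups overlapped, with 3 counts in each mutant library and 1, 4 and 0 in the wild-type libraries. The genes beside the locus went in opposite directions, and neither was called. Y37H2A.16 had 47, 51 and 61 counts in div-1 larvae and 32, 33 and 18 counts in wild-type larvae, without overlap. At fbxa-107 the mutant lay below, with 77, 61 and 63 counts in div-1 larvae and 98, 87 and 88 counts in wild-type larvae.

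The other locus lies on chromosome IV after fbxc-8 and consists of CER3-LTR_CE_3, CER3-I_CE-int_8, the gene row F58H7.5 and CER3-LTR_CE_4. CER3-I_CE-int_8 had 216, 78 and 179 counts in the mutant libraries and 68, 41 and 28 counts in the wild-type libraries. The groups did not overlap, but mutant library 2 came close to wild-type library 1, and the log2 fold change of 1.69 (SE 0.43) had an edgeR adjusted p of 0.144, and 0.00613 in DESeq2. F58H7.5, a gene row between these LTRs, had 61, 19 and 49 counts in div-1 larvae and 9, 5 and 10 counts in wild-type larvae. Its log2 fold change was 2.32, with an edgeR adjusted p of 0.0795. The adjusted p was 0.045 without mutant library 2 and 0.00207 in DESeq2. The gene before the locus, fbxc-8, had 42, 7 and 31 counts in div-1 larvae and 6, 7 and 7 counts in wild-type larvae. After scaling its groups did not overlap, but it did not pass the filter. The gene after it, lgc-30, overlapped between the groups, with 393, 444 and 475 counts in div-1 larvae and 429, 497 and 340 counts in wild-type larvae.

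Another CER3 row had the same order of the mutant libraries, with library 1 the highest and library 2 the lowest. CER3-I_CE-int_6, which follows the gene dct-10 in the table, had 29, 4 and 25 counts in div-1 larvae and 7, 1 and 2 counts in wild-type larvae. Mutant library 2 lay within the wild-type range. The row of dct-10 itself had 102, 29 and 90 counts in div-1 larvae and 26, 10 and 9 counts in wild-type larvae, and the log2 fold change was 2.19 with an edgeR adjusted p of 0.148, and 0.00623 in DESeq2. CER3-I_CE-int_7 and CER3-I_CE-int_9 had no counts.

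**Figure D4:**
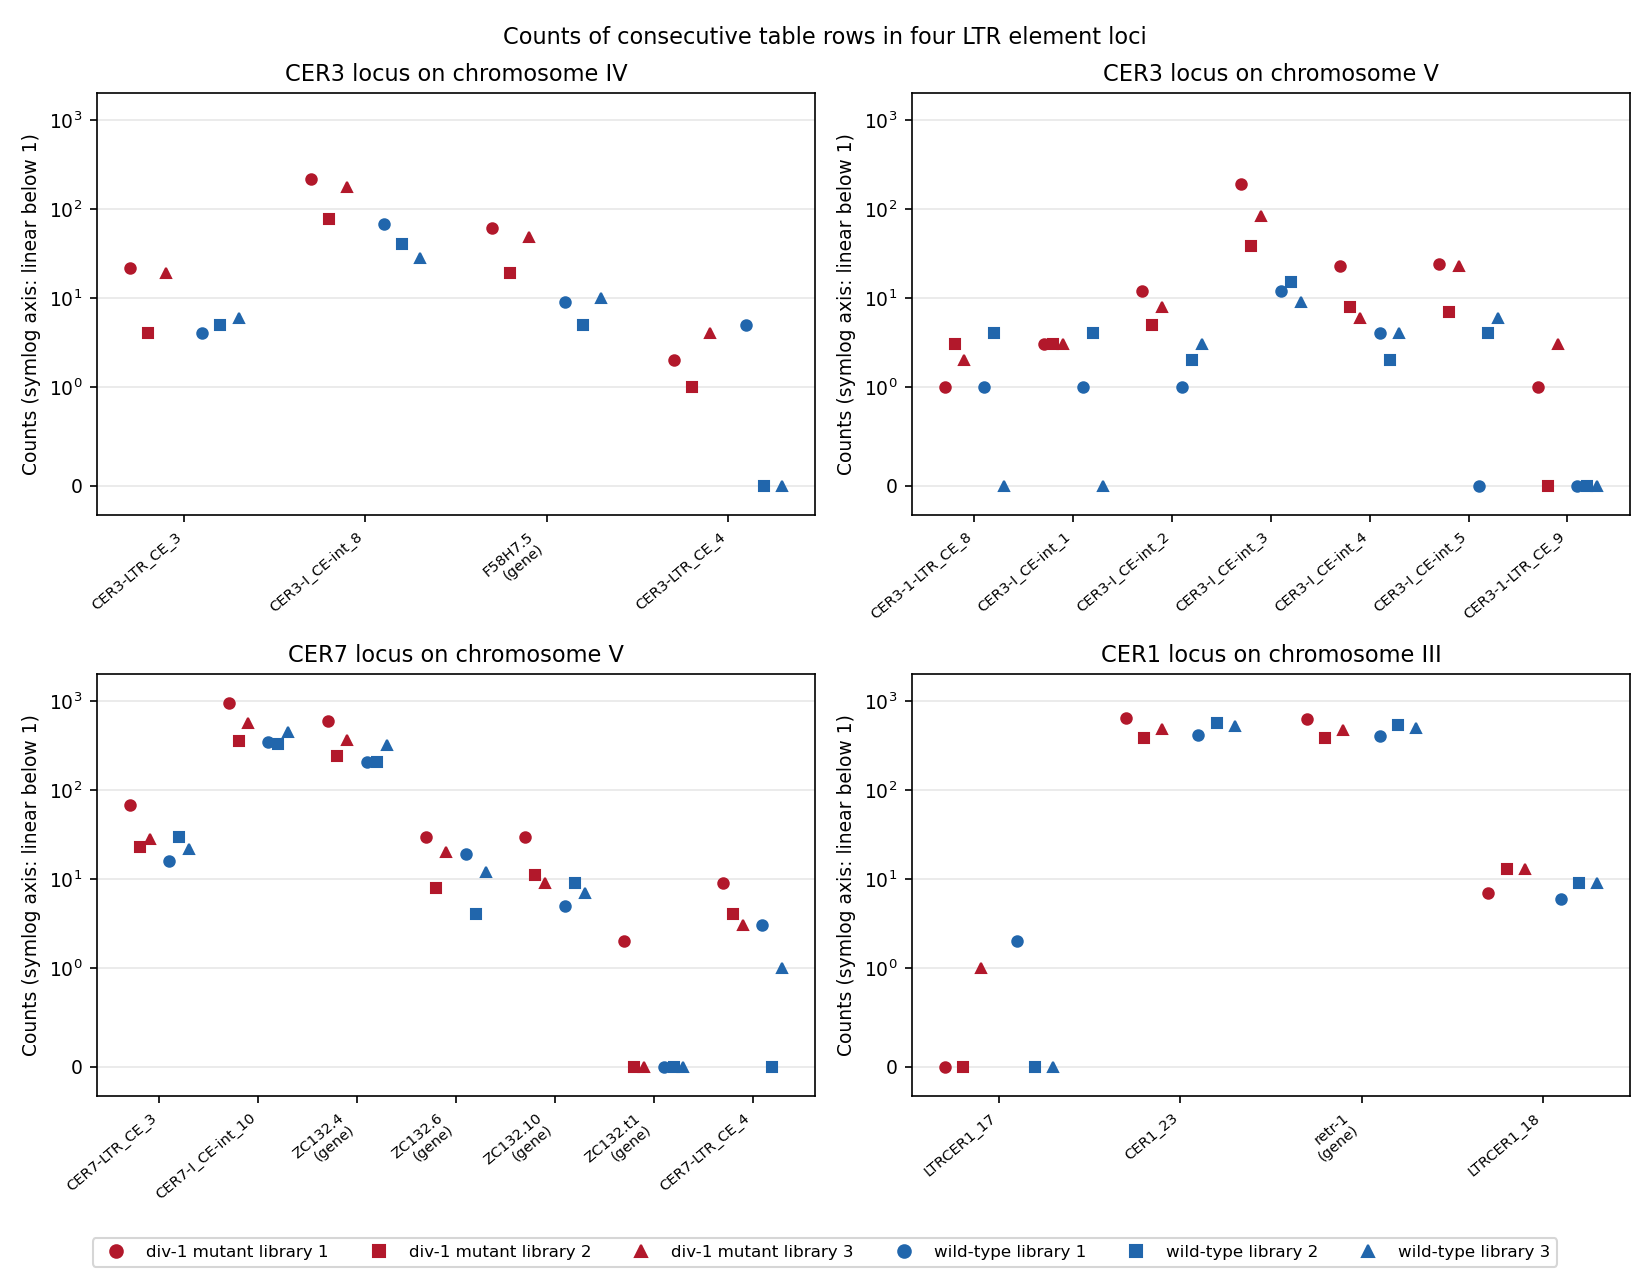
Counts per library (axis logarithmic above 1 and linear below) of consecutive table rows at 4 loci, with the div-1 mutant in red to the left of the wild type in blue, and gene rows marked. At both CER3 loci the mutant libraries stand above the wild type on the main internal row; at the CER7 and CER1 loci the groups overlap on it.

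Single copies were tested among all 17401 rows that passed the filter, genes included. Of the 619 copies 61 passed, and they held 87.2% of the counts. The test called 1 of them, which was higher in the mutant, where 0.965% of all rows were called and 0.948% were called higher. The filter can keep a row through a single group, and the called copy passed it through the mutant libraries, where it was high. The shares below may rest in part on such rows. At an unadjusted p under 0.05, 14 of the 61 (23%) were higher and 0 lower, against 8.41% higher and 2.36% lower among all rows, and 7.68% higher among the other repeat copies. The count of higher copies was 6 of 62 (9.68%) without mutant library 3, against 5.83% of all rows, and 8 of 68 (11.8%) without wild-type library 2, against 7.23% of all rows. All mutant libraries lay above all wild-type libraries at 13 copies (21.3%), against 10.3% of all rows and 11.1% of the other repeat copies. They lay below at 0 copies, against 7.52% of all rows.

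The direction was also tilted at the level of copies. The log2 fold changes of the 61 copies had their median at 0.34, with 48 above 0 (78.7%). It was -0.02 for all rows tested, of which 46.9% were above 0, and 0.08 for the other repeat copies, of which 58% were. Among the 149 copies with at least 10 counts in total, a set that the group filter did not shape, the median was 0.43 and 79.9% were above 0. For all rows with as many counts the median was 0.02 and 52.1% were above 0, and for the other repeat copies it was 0.17 and 58.9%. No difference between these medians was tested.

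The called copy was CER16-1-LTR_CE_5, an LTR row on chromosome III between Y71H2AM.25 and Y71H2AM.3, chosen by the threshold. It had 38, 19 and 23 counts in the mutant libraries and 4, 4 and 6 counts in the wild-type libraries. Every mutant library had more than 3 times the counts of any wild-type library, and the level was 1 ± 0.311 CPM in div-1 larvae and 0.186 ± 0.0485 CPM in wild-type larvae (SD, n = 3 each). It rose by 2.41 on the log2 scale (SE 0.40, edgeR adjusted p = 0.0386). The call rests on few counts. It was lost when any single library of the 6 was left out, with adjusted p between 0.0655 and 0.176.

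The gene rows on either side of this copy did not separate the groups. Y71H2AM.25, the gene before it, had 33, 13 and 22 counts in div-1 larvae and 27, 12 and 10 counts in wild-type larvae. Y71H2AM.3, the gene after it, had 828, 783 and 742 counts in div-1 larvae and 767, 915 and 734 counts in wild-type larvae.

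The CER16 element had other families above the wild type that did not pass the threshold. CER16-1-LTR_CE as a whole stood at 3.93, 3.34 and 4.86 CPM in div-1 larvae and at 2.66, 2.1 and 1.81 CPM in wild-type larvae. The groups did not overlap (log2 fold change 0.88, SE 0.25, edgeR adjusted p = 0.207), and 77.3% of its counts came from another copy, CER16-1-LTR_CE_1 on chromosome I, where the groups overlapped (log2 fold change 0.58, edgeR adjusted p = 0.548). The gene before the locus of that copy, scrm-4, was itself called higher (edgeR adjusted p = 0.0386). It had 911, 659 and 896 counts in div-1 larvae and 446, 443 and 423 counts in wild-type larvae. F11A6.3, the gene after the locus, had 2 counts in all. The internal family CER16-2-I_CE-int stood at 11.2, 9.02 and 11.4 CPM in div-1 larvae and at 7.37, 6.33 and 7.69 CPM in wild-type larvae. These groups did not overlap either, and the log2 fold change was 0.56 (SE 0.18, edgeR adjusted p = 0.27).

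CER16-2-I_CE-int_1, its leading copy, and CER16-2-I_CE-int_8 lie in loci with an LTR on each side. CER16-2-I_CE-int_1 on chromosome I had 133, 74 and 106 counts in div-1 larvae and 55, 67 and 75 counts in wild-type larvae, and the log2 fold change was 0.59 (edgeR adjusted p = 0.435). The gene row C27C7.1 within that locus had 75, 40 and 47 counts in div-1 larvae and 24, 31 and 35 counts in wild-type larvae (log2 fold change 0.77, edgeR adjusted p = 0.387). On chromosome X, CER16-2-I_CE-int_8 had 38, 12 and 17 counts in div-1 larvae and 4, 8 and 12 counts in wild-type larvae, and the log2 fold change was 1.38 (edgeR adjusted p = 0.389). After scaling, all mutant libraries lay above the wild type on both copies, with mutant library 2 the nearest to it.

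CER8, CER10 and CER2 were further internal families with an unadjusted p under 0.05. CER8-I_CE-int stood at 6.83, 7.33 and 8.4 CPM in div-1 larvae and at 5.45, 4.73 and 4.59 CPM in wild-type larvae (log2 fold change 0.61, SE 0.18, edgeR adjusted p = 0.237). CER10-I_CE-int stood at 6.65, 8.32 and 12 CPM in div-1 larvae and at 5.37, 6.29 and 4.51 CPM in wild-type larvae (log2 fold change 0.74, SE 0.26, edgeR adjusted p = 0.343). In both, the groups did not overlap and mutant library 3 was the highest. The leading copy of CER8-I_CE-int, CER8-I_CE-int_3, starts inside the gene C03A7.2 on chromosome V and had 82, 83 and 105 counts in div-1 larvae and 62, 57 and 54 counts in wild-type larvae (log2 fold change 0.58, edgeR adjusted p = 0.384). That gene row lies between the LTR rows of the same locus and had 10 counts in all.

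CER2-I_CE-int stood at 6.15, 2.47 and 5.61 CPM in div-1 larvae and at 2.25, 1.91 and 2.5 CPM in wild-type larvae. Mutant library 2 lay within the wild-type range, and the log2 fold change of 1.10 (SE 0.35) had an edgeR adjusted p of 0.287. Its leading copy, CER2-I_CE-int_3 on chromosome II, held 85.2% of the family, with 142, 48 and 127 counts in div-1 larvae and 47, 47 and 56 counts in wild-type larvae, and the groups overlapped (log2 fold change 0.99, edgeR adjusted p = 0.366). The leading copy of CER10-I_CE-int, CER10-I_CE-int_2 on chromosome V, had 126, 121 and 225 counts in div-1 larvae and 83, 92 and 61 counts in wild-type larvae. At that copy the groups did not overlap (log2 fold change 0.94, edgeR adjusted p = 0.276).

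CER7 and CER1 had the highest counts, and in CER7-I_CE-int and CER1 the groups overlapped. CER7-I_CE-int stood at 41.1, 19.9 and 26.2 CPM in div-1 larvae and at 18.8, 16.2 and 23 CPM in wild-type larvae. The groups overlapped (29 ± 10.9 CPM in div-1 larvae and 19.3 ± 3.4 CPM in wild-type larvae, SD, n = 3 each), with a log2 fold change of 0.59 and an edgeR adjusted p of 0.493. A single copy on chromosome V, CER7-I_CE-int_10, held 79.6% of its counts, with 952, 359 and 569 counts in div-1 larvae and 351, 330 and 447 counts in wild-type larvae. Its log2 fold change was 0.64 (edgeR adjusted p = 0.499). CER7-LTR_CE stood at 5.68, 2.88 and 3.16 CPM in div-1 larvae and at 2.25, 2.33 and 2.54 CPM in wild-type larvae. All mutant libraries lay above the wild type in this LTR family, with a log2 fold change of 0.72 (SE 0.30, edgeR adjusted p = 0.435). Its leading copy, CER7-LTR_CE_1 on chromosome I, overlapped between the groups (log2 fold change 0.75, edgeR adjusted p = 0.453).

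CER1 is the element of which the N2 strain carries a well-studied full-length copy, active in the germline. The CER1 family stood at 24.8, 17.7 and 20 CPM in div-1 larvae and at 18.9, 23.6 and 23.4 CPM in wild-type larvae. The groups overlapped, with means of 20.8 ± 3.66 CPM in div-1 larvae and 22 ± 2.65 CPM in wild-type larvae (SD, n = 3 each). The log2 fold change was -0.08 (SE 0.17, edgeR adjusted p = 0.908), and its sign changed to 0.02 with scaling by library size alone and to 0.02 without mutant library 2.

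A single CER1 copy with LTRs on both sides carried 91% of the family. CER1_23 on chromosome III had 640, 385 and 487 counts in the mutant libraries and 414, 570 and 525 counts in the wild-type libraries, and the log2 fold change of -0.07 (edgeR adjusted p = 0.923) changed sign in the same settings as that of the family. The gene row retr-1, which encodes proteins of this element, lies between the same LTR rows and had 629, 381 and 477 counts in div-1 larvae and 406, 538 and 504 counts in wild-type larvae (log2 fold change -0.03, edgeR adjusted p = 0.963, with a sign that changed under upper-quartile factors, under library size alone and in 3 cases of a library left out). The retr-1 count was 94.4% to 99% of the CER1_23 count in each library, so these rows may largely hold the same reads and were not taken as independent measurements.

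The remaining 15 families above 1 CPM overlapped between the groups. Their log2 fold changes lay between -0.17 and 0.64, of which 12 were above 0, and their edgeR adjusted p between 0.504 and 0.977.

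Of these, 8 were internal families. The log2 fold change was 0.64 for CER5-I_CE-int, 0.42 for CER17-I_CE-int, 0.39 for CER15-1-I_CE-int and for CER12-I_CE-int, 0.22 for CER15-I_CE-int, 0.13 for CER6-I_CE-int and for CER9-I_CE-int, and -0.17 for CER4-I_CE-int. The family with the most counts was CER15-I_CE-int, at 15.5, 10 and 11.9 CPM in div-1 larvae and at 10.9, 10.6 and 10.7 CPM in wild-type larvae. Mutant library 1 stood highest, and mutant library 2 was below the whole wild type. Its leading copy, CER15-I_CE-int_14 on chromosome II, was the next in total counts after CER1_23 and CER7-I_CE-int_10. It had 212, 87 and 132 counts in div-1 larvae and 99, 125 and 136 counts in wild-type larvae, and its log2 fold change of 0.18 was -0.16 without mutant library 1. CER17-I_CE-int_4 on chromosome V had 65, 89 and 105 counts in div-1 larvae and 71, 75 and 59 counts in wild-type larvae (log2 fold change 0.29). The groups overlapped on both copies. Apart from CER15-1-I_CE-int_13, described with its host gene, the other leading copies had log2 fold changes of 0.83 for CER5-I_CE-int_1, 0.13 for CER6-I_CE-int_8, -0.16 for CER4-I_CE-int_1 and -0.21 for CER9-I_CE-int_64, and CER12-I_CE-int_4, with 26 counts in all, was too low to be tested.

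The other 7 were LTR families. Their log2 fold changes were 0.46 for CER2-LTR_CE, 0.31 for CER9-LTR_CE, 0.30 for CER6-LTR_CE, 0.28 for CER16-LTR_CE, 0.23 for LTR1_CE, -0.12 for CER16-2-LTR_CE and -0.04 for CER2-1-LTR_CE, the last of which was 0.02 with upper-quartile factors and 0.04 with library size alone. CER2-LTR_CE had the most counts of them and stood at 6.33, 4.24 and 5.99 CPM in div-1 larvae and at 3.2, 3.7 and 5.12 CPM in wild-type larvae, and mutant library 2 lay within the wild-type range. Its leading copy, CER2-LTR_CE_6, starts inside the gene Y41D4A.3 on chromosome IV and held 79.8% of the family. That copy had 129, 87 and 120 counts in div-1 larvae and 67, 87 and 101 counts in wild-type larvae, and the groups overlapped (log2 fold change 0.33). The leading copies of the other LTR families had log2 fold changes of 0.39 for CER16-LTR_CE_10, 0.34 for CER6-LTR_CE_7, 0.26 for LTR1_CE_21, -0.12 for CER9-LTR_CE_8 and for CER2-1-LTR_CE_6, and -0.34 for CER16-2-LTR_CE_12.

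**Figure D5:**
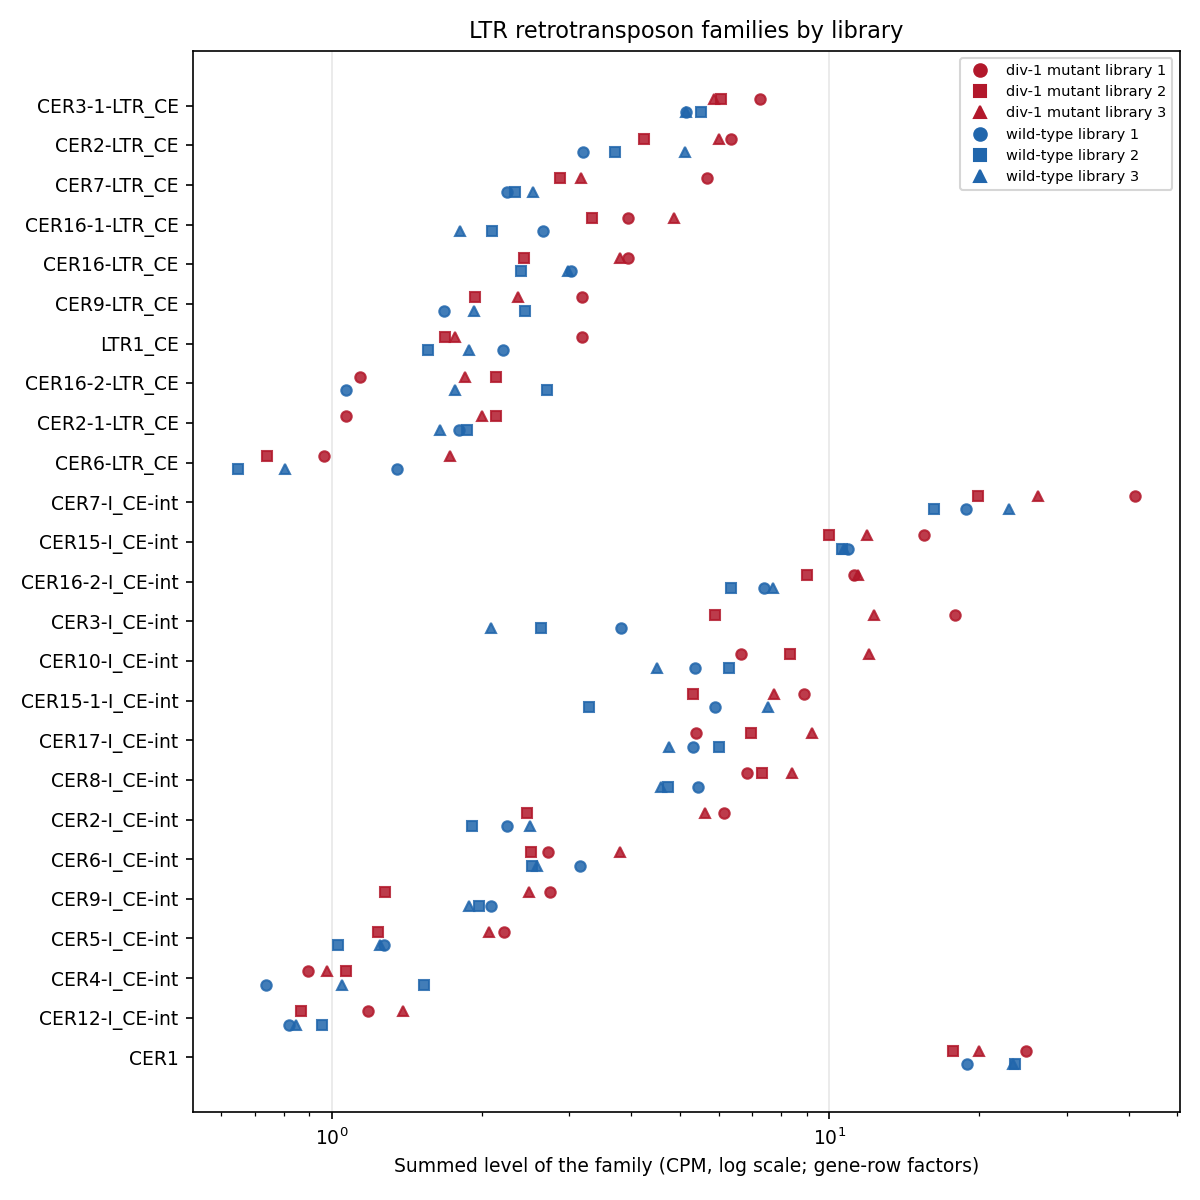
Level (CPM, log axis) of the 25 LTR element families with a mean of at least 1 CPM, with 1 point per library, div-1 mutant in red and wild type in blue, LTR families above, internal families in the middle and CER1 at the bottom. CER3-I_CE-int shows the largest ratio of group means, and mutant library 2 (red square) is the lowest of the mutant libraries in 18 of the 25 families.

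Internal and LTR parts were then set against each other. How reads with several matches were treated is not known, so the parts may not be counted alike. For instance, CER5-I_CE-int_1 had 61 counts in all, while the LTR rows beside it had 0. The internal parts together stood at 131, 83.1 and 117 CPM in div-1 larvae and at 74.2, 66.8 and 75.6 CPM in wild-type larvae, a ratio of 1.53. The LTR parts together stood at 41.2, 30.6 and 37.5 CPM in div-1 larvae and at 26.7, 28 and 28.2 CPM in wild-type larvae, a ratio of 1.32. Neither sum overlapped between the groups. Among tested families, 14 of 15 internal families had a log2 fold change above 0, with a median of 0.52, and so did 10 of 13 LTR families, with a median of 0.28.

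The share of counts in internal parts was set out with every family not marked internal counted as an LTR part, CER1 included. It was 66.5%, 63.2% and 67% in div-1 larvae and 61.9%, 56.4% and 59.4% in wild-type larvae. The groups did not overlap, and the means differed by 6.3 percentage points (65.6% ± 2.04 in div-1 larvae and 59.3% ± 2.75 in wild-type larvae, SD, n = 3 each). The size rests on where CER1 is placed. With CER1 left out of both parts, the share was 76.1%, 73.1% and 75.7% in div-1 larvae and 73.5%, 70.5% and 72.8% in wild-type larvae, the groups overlapped, and the difference was 2.66 points. With CER1 among the internal parts the groups also overlapped, and the difference was 0.783 points. Without the leading copy of each family it was 3.54 points, and the groups overlapped.

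Within elements, neither part was higher throughout. Of 16 elements with both parts in the table, 9 had at least 30 counts of each part in each group. The log2 ratio of mutant over wild type was greater for the internal part in 3 of these and greater for the LTR part in 6. The median was 0.39 for internal parts and 0.38 for LTRs. These counts take CER1 as the internal part beside LTRCER1; without it, 8 elements remained, with the internal part greater in 3 and the LTR part in 5, and the medians were 0.47 and 0.40. CER3 had 2.08 for its internal part and 0.38 for its LTRs, and CER2 had 1.10 and 0.33 for the same parts. The LTR sums include LTR rows that stand alone at other loci, so the parts do not come from the same loci throughout. CER7 ran the other way, with 0.59 for its internal part and 0.72 for its LTRs.

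Gene rows inside the element loci, which may share reads with the copies, leaned to the same side as the copies. Of the 35 loci with an LTR on each side, 25 hold gene rows between the LTRs, 49 in all, of which 22 were tested. None of the 22 was called by edgeR or limma voom, and DESeq2 called F58H7.5. At an unadjusted p under 0.05, 6 were higher and 0 lower, beside 8.41% higher and 2.36% lower of all rows. In all, 18 had a log2 fold change above 0, beside 46.9% of all rows, and the median of the 22 was 0.52, beside -0.02. In 6 of the 22 all mutant libraries lay above the wild type, beside 10.3% of all rows. Besides F58H7.5, R03D7.2 in the CER2 locus on chromosome II had 127, 42 and 100 counts in div-1 larvae and 33, 36 and 53 counts in wild-type larvae (log2 fold change 1.05, edgeR adjusted p = 0.368). H11L12.1 in the CER16 locus on chromosome X had 32, 12 and 14 counts in div-1 larvae and 4, 6 and 8 counts in wild-type larvae (log2 fold change 1.59, edgeR adjusted p = 0.249). These counts equalled 70.2% to 94.6% of the CER2-I_CE-int_3 count and 66.7% to 100% of the CER16-2-I_CE-int_8 count, so gene row and copy may share reads. The share was 90.7% to 100% for E03A3.1 beside CER6-I_CE-int_8 and 43.6% to 56.4% for C27C7.1 beside CER16-2-I_CE-int_1. It was 12.2% to 35.7% for F58H7.5 beside CER3-I_CE-int_8. The gene rows were thus not taken as measurements independent of the copies. The groups overlapped at R03D7.2, where mutant library 2 lay within the wild-type range, and did not overlap at H11L12.1.

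Some copies start inside the span of a gene. By the genes matched by symbol, these were 49 copies with 9.63% of the counts. Not every such gene is a host, since C03A7.2 lies between the LTR rows of its CER8 locus. It had 10 counts in all, beside 443 for CER8-I_CE-int_3. Of the 49 gene rows between the LTRs of flanked loci, 24 had no match by symbol. The share is thus not one of host genes alone. CER15-1-I_CE-int_13, inside the hedgehog-related gene qua-1, had 95, 36 and 81 counts in div-1 larvae and 63, 31 and 85 counts in wild-type larvae (log2 fold change 0.15, edgeR adjusted p = 0.931). The row of qua-1 had 2331, 845 and 1545 counts in div-1 larvae and 1176, 837 and 1596 counts in wild-type larvae. The copy and the gene had the same order of libraries within each group. Without the copies that start inside a gene, the log2 ratio of the summed level was 0.47, beside 0.46 with them.

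Genes that encode repeat-silencing factors were examined beside the elements. The list was chosen with earlier results of these data known, so its shares here and below are descriptive only. The list had 45 names, which corresponded to 42 gene rows, all tested, with a median log2 fold change of -0.11 and 10 above 0, where the median of all rows was -0.02 and 46.9% were above 0. By edgeR 1 of the 42 was called lower and 0 higher, beside 0.0172% lower and 0.948% higher of all rows. At an unadjusted p under 0.05 the list again had 1 lower and 0 higher, beside 2.36% and 8.41% of all rows. The called gene was mut-16, the scaffold of the mutator foci in which small RNAs are amplified. It had 233, 113 and 174 counts in the mutant libraries and 1304, 1357 and 1254 counts in the wild-type libraries, with every mutant library far below the wild type. It fell by 2.99 on the log2 scale (SE 0.22, edgeR adjusted p = 0.0016). Low mut-16 and the or148 allele occur in the same libraries, so their parts in the levels of the elements cannot be told apart.

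In 6 further genes of the list all mutant libraries lay below the wild type, so that 7 of the 42 did, beside 7.52% of all rows, and in 0 genes did they all lie above. The 6 were ergo-1, rde-2, mut-14, emb-4, rde-8 (listed as ZC477.5) and smut-1 (listed as Y38A10A.6), named after their values were seen. Their log2 fold changes lay between -0.47 for mut-14 and -0.16 for rde-2, and their edgeR adjusted p between 0.482 and 0.706, so none passed the threshold.

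The other factors described here did not pass the threshold either. The H3K9 methyltransferase gene met-2 stood at 87.9 ± 6.13 CPM in div-1 larvae and 86.6 ± 9.63 CPM in wild-type larvae. The second methyltransferase gene, set-25, stood at 18.7 ± 3.83 CPM in div-1 larvae and 19.2 ± 0.889 CPM in wild-type larvae. The gene of the piRNA Argonaute, prg-1, stood at 23 ± 4.1 CPM in div-1 larvae and 20.6 ± 1.39 CPM in wild-type larvae. For mut-2, a nucleotidyltransferase gene also called rde-3, the level was 3.74 ± 0.76 CPM in div-1 larvae and 3.75 ± 0.524 CPM in wild-type larvae (SD, n = 3 each throughout). All of these groups overlapped.

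Several Cer elements are transcribed in the germline, so markers of germ cells and of adult or embryonic carry-over were measured in the same libraries. The 13 germline markers summed to 176, 126 and 146 CPM in div-1 larvae and 118, 133 and 151 CPM in wild-type larvae, and 0 of 13 were called. The groups overlapped, and mutant library 1, the highest for the summed elements, was also the highest here. The 12 oocyte and early embryo markers summed to 79.8, 62.6 and 64.8 CPM in div-1 larvae and 41.3, 82.4 and 50.7 CPM in wild-type larvae. The 12 adult yolk and sperm markers summed to 9.76, 7.41 and 10.8 CPM in div-1 larvae and 6.96, 5.53 and 8.62 CPM in wild-type larvae. Of the adult markers msp-3, msp-10 and msp-78, which encode major sperm proteins, were at 0 in all libraries. None of the markers of these lists was called by edgeR, DESeq2 or limma voom. At an unadjusted p under 0.05, 2 of the 4 tested adult markers were higher and 0 lower, beside 8.41% higher and 2.36% lower of all rows, and 0 of the other tested markers reached it in either direction. Their part in the levels of the elements was not tested.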

How the data were processed

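The authors deposited 1 table of raw read counts per gene, single repeat copy and reporter part for the 6 libraries, whole numbers without normalisation. Per the submitters' processing notes, TopHat2 2.1.0, featureCounts 1.5.0 and DESeq2 1.8.1 were used. Their options, strand setting, treatment of reads with several matches and genome build were not given in the sources used here. Per the labels' protocols, a small RNA kit and gel-cut short inserts were used, so near-identical copies are hard to tell apart. Since the strand setting of the counting is unknown, sense and antisense reads may be mixed.

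Library sizes and TMM factors came from gene rows alone, since a read may count for a gene and a repeat over it. Rows that passed filterByExpr by group were fitted on group alone with the robust quasi-likelihood test of edgeR 4.0.16 in R 4.3.3, two-sided, with Benjamini-Hochberg adjustment over all rows tested, at an adjusted p under 0.05. A first fit held single rows and a second held genes with the summed repeat families. The common biological coefficient of variation was 0.224. DESeq2 1.42.0, limma 3.58.1, other scalings and filters, a replicate block and each library left out were alternatives. The tests were tried on counts simulated with the same dispersion for every row and with changes in well-counted rows only. That trial does not cover copies with few counts. Intervals and limits cover counting error only.

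Gene rows were matched by symbol to the Ensembl release 115 annotation of WBcel235 (39474 of 45836, 86.1%). Of neighbouring matched pairs, 99.3% were in genome order, which placed the copies, and no coordinates were used. Families with a mean of at least 1 CPM were named, with their leading copies, the 12 leading copies of all, and rows past the threshold; others were named after their values were seen, namely single rows of the CER3, CER16 and CER7 loci, the gene rows beside copies and 6 silencing genes. The members and lists were chosen with earlier results of these data known. The share of internal parts counts CER1 with the LTR parts, as planned for every family not marked internal; elsewhere CER1 is given apart, or as the internal part beside its LTR family LTRCER1. The name hrde-1 matched no row and is not analysed here. Element sequences were not used here.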

Additional observations from a re-analysis of the deposited data

How the results depend on the processing

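The count of 1 called copy was 2 with upper-quartile factors, 2 with a filter of at least 10 counts in total, 6 with no filter, 3 in DESeq2, and between 0 and 1 when single libraries were left out; without mutant library 2 the called copy was CER3-I_CE-int_3, and without each of the other 5 libraries in turn the count was 0. The count of 0 called families was 1 with no filter, 1 in DESeq2 and between 0 and 1 with libraries left out, the 1 being CER3-I_CE-int each time (adjusted p = 0.0475, 0.000108 and, without mutant library 2, 0.0341). The silencing list had 1 call under each of its alternatives. The log2 ratio of the summed level lay between 0.33 and 0.61 over its alternatives, with 0.39 without the CER3 families. The internal share differed by 3.54 points without the leading copy of each family, by 2.66 points with CER1 kept apart, by 0.783 points with CER1 among the internal parts, and by 4.89 to 7.64 points with single libraries left out. The 2 other placements of CER1 and the removal of the CER3 families and of copies inside genes were chosen after seeing the data. Of 1028 alternative values of the 61 log2 fold changes in the text, 974 kept direction and side of the threshold, 7 lost the call, 16 gained it and 31 changed sign. The sign changes fell on 19 genes, copies or families, each with an adjusted p of at least 0.746 in that setting, and 25 of them came with a library left out. Those from another scaling were CER1 (0.02 with library size alone), CER1_23 (0.03 with library size alone), retr-1 (0.02 with upper-quartile factors and 0.06 with library size alone) and CER2-1-LTR_CE (0.02 and 0.04 in the same settings). With single libraries left out, the range was -0.22 to 0.02 for CER1, -0.18 to 0.49 for CER15-1-I_CE-int_13, -0.16 to 0.39 for CER15-I_CE-int_14, -0.40 to 0.26 for CER16-2-LTR_CE, -0.64 to 0.06 for CER16-2-LTR_CE_12, -0.22 to 0.04 for CER1_23, -0.22 to 0.22 for CER2-1-LTR_CE, -0.37 to 0.22 for CER2-1-LTR_CE_6, -0.40 to 0.13 for CER4-I_CE-int, -0.40 to 0.14 for CER4-I_CE-int_1, -0.07 to 0.24 for CER6-I_CE-int, -0.08 to 0.23 for CER6-I_CE-int_8, -0.12 to 0.65 for CER6-LTR_CE, -0.06 to 0.66 for CER6-LTR_CE_7, -0.08 to 0.39 for CER9-I_CE-int, -0.74 to 0.18 for CER9-I_CE-int_64, -0.52 to 0.46 for CER9-LTR_CE_8, -0.13 to 0.38 for LTR1_CE and -0.19 to 0.07 for retr-1. The cause was not tested. Library size alone moved the gene median by 0.09. No member was lower at an unadjusted p under 0.05 in any of these scalings or with any library left out.

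Replicate numbers are those of the sample titles. The libraries numbered 1 were deposited under the names MUT1 and TR2, so these names do not share a number. Deviations of same-numbered libraries correlated at -0.25, 0.58 and -0.40, so no pairing by replicate number was seen. With 3 libraries in each group these values cannot exclude a pairing. With the replicate number as a block, 0 copies and 0 families were called, and CER16-1-LTR_CE_5 had an adjusted p of 0.105.

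Of the 619 copies, 558 were too low to be tested, of which 300 had no count.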
